A study of Mus musculus with 39 samples.

Results

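The genes described here are the nuclear genes of oxidative phosphorylation, taken by family name from a bead array study of the mouse testis. They were all genes whose platform symbol starts with Nduf, Sdh, Uqcr, Atp5 or Cox4 to Cox8, without the testis isoforms Cox6b2, Cox7b2 and Cox8c. The platform listed 138 array features (probes) for 88 such genes, and 117 probes of 84 genes were detected at a detection p-value below 0.01 on 3 or more arrays. These 84 genes stand beside 12518 genes measured in all. The 4 genes with no feature passing that filter were Ndufs1, Ndufaf6, Sdha and Cox8b. By role, the 84 genes held 34 subunits of complex I, 3 of complex II, 7 of complex III, 8 of complex IV, 16 of complex V, 11 assembly factors, 4 tissue-restricted isoforms or isoform-like genes of the Cox families and the pseudogene Ndufs5-ps. Ndufa4 was counted with complex I by its name, although it is now known as a subunit of complex IV.

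Oxidative phosphorylation passes electrons from NADH (complex I) and succinate (complex II) through complex III to oxygen at complex IV, and ATP synthase (complex V) uses the proton gradient that results. Most subunits are encoded in the nucleus and built into the complexes with dedicated assembly factors, while a few core subunits come from mitochondrial DNA and are not among these genes. In the testis, germ cells change their mitochondria and several subunit isoforms as they pass through meiosis.

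Total RNA of whole mouse testis was hybridized from 13 groups of 3 samples. Testes grown in vivo were taken at 7.5, 9.5, 11.5, 13.5, 14.5, 16.5 and 21.5 days post partum (dpp). Testes taken at 7.5 dpp were kept in culture and sampled after 2, 4, 6, 7, 9 and 14 days, which match the 6 later ages. No genotype, strain, treatment or culture medium is given in the labels used here, and nothing says whether replicates came from separate animals, so that p-values measure the spread between these samples. In whole tissue, fewer cells of a type and less RNA per cell cannot be told apart.

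The 38 arrays used detected between 35.6% and 43.9% of probes, and arrays of 1 group correlated at 0.929 to 0.992. One array stood apart. Replicate 2 of 9.5 dpp in vivo had the lowest detected share, 35.6%, and the median of the 84 genes on it lay 0.73 (log2) above the mean of the 7.5 dpp arrays, while the lowest array of its group lay 0.08 above it. At 11.5 dpp in vivo the corresponding array medians ran from 0.07 to 0.50, with replicate 1 the highest. Counts in the comparisons of culture with in vivo at 9.5 and 11.5 dpp, and of 9.5 with 7.5 dpp, are given with and without them. In vivo 13.5 dpp rests on 2 arrays.

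Levels are log2 signals after background correction and quantile normalization, and a difference is a difference of group means on that scale. A gene is said to have risen, fallen or differed where limma's Benjamini-Hochberg adjusted p over all 12518 genes was below 0.05. A gene is represented by its brightest probe, and genes whose probes were called in opposite directions are named after the comparisons. Where a count under another normalization or fit has no share of all genes beside it, it shows only how calls depend on that setting.

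Over the 7 in vivo ages, 57 of the 84 genes varied in limma's F test, 67.9% of them, beside 81% of all genes. Over the 6 culture times together with the 7.5 dpp start, 41 of the 84 varied, 48.8%, beside 59.3% of all genes. Without replicate 2 of 9.5 dpp in vivo, 58 of the 84 varied over the in vivo ages. Both shares lay below that of all genes. The narrowest ranges of group means over the 13 groups belonged to Ndufa8 (0.24), an accessory subunit of complex I, and Uqcr10 (0.28), a small subunit of complex III. Cox5b of complex IV spanned 0.35, Atp5b, the catalytic beta subunit of ATP synthase, spanned 0.52, and Sdhc, a membrane anchor of complex II, spanned 0.57. The widest belonged to the assembly factor Ndufaf3 (3.09), then Cox7a2 (2.94), Cox6a2 (2.84) and Atp5k (2.39).

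**Figure D1:**
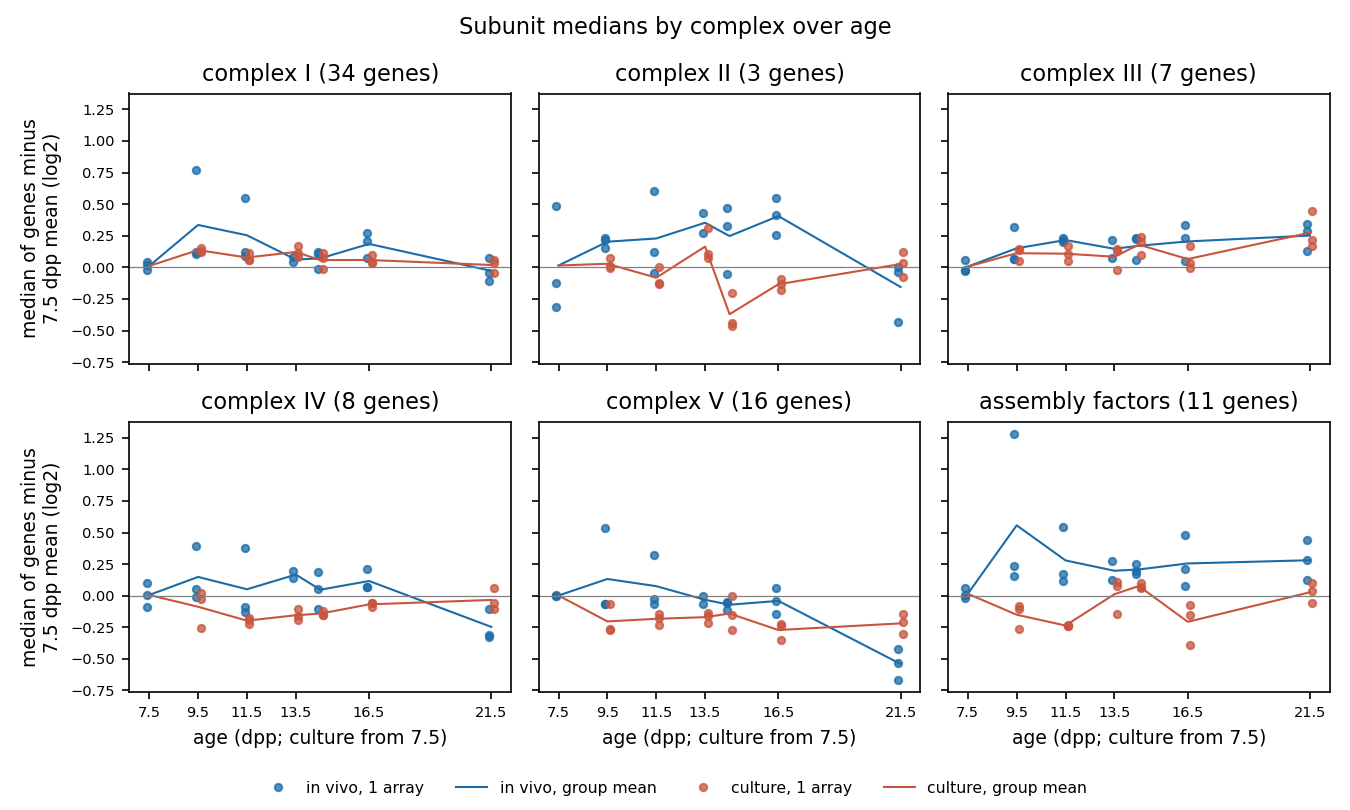
Median over the subunits of each complex, and over the assembly factors, after subtracting each gene's mean at 7.5 dpp (log2, vertical axis), against age in dpp (horizontal axis). Each point is 1 array and lines join group means, in vivo in blue and culture in red, the culture line starting from the 7.5 dpp in vivo mean. Complex V lies lowest of these sets in vivo at 21.5 dpp, at -0.52, beside -0.50 for all genes with a mean level of 10 or over. At 9.5 dpp in vivo, 1 array lies far above its group in complexes I, IV and V and in the assembly factors.

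From 7.5 to 14.5 dpp in vivo, when the first wave of germ cells enters meiosis, 10 of the 84 genes rose and 5 fell, beside 14.8% of all genes higher and 16.5% lower (31.3% in either direction). Of these, 3 rose and 1 fell by 2-fold or more, beside 7.41% and 6.93% of all genes. The median of the 84 genes moved by 0.07 and that of all genes by -0.04. Of the genes that rose, 6 were complex I subunits, 2 were complex III subunits and 1 was a complex IV subunit. Ndufa1, a membrane-arm subunit of complex I, stood at 12.27, 12.26 and 12.27 on the 7.5 dpp arrays and at 13.44, 13.12 and 13.36 on the 14.5 dpp arrays. The groups did not overlap, and the rise was 1.04 (SE 0.15, n = 3 and 3, limma adjusted p = 3.9e-06). Uqcrc2, a core protein of complex III, rose by 0.58. Ndufv1, which carries the NADH-binding site of complex I, rose by 0.35, and Ndufv2 of the same complex by 0.57.

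Ndufaf3, an early assembly factor of complex I, was detected on 1 of 3 arrays at 7.5 dpp, at 5.87, 5.60 and 4.72. It read 7.48, 6.88 and 7.14 at 14.5 dpp and 8.59, 8.69 and 8.19 at 21.5 dpp, and each later group lay wholly above the one before. The rise to 14.5 dpp was 1.77 (SE 0.50, limma adjusted p = 0.0069), and a further rise of 1.32 to 21.5 dpp (SE 0.50, limma adjusted p = 0.022) was lost when any of 3 arrays was left out. Uqcrfs1, the Rieske iron-sulfur protein of complex III, was below detection on every 7.5 dpp array and detected on 2 of 3 arrays at 14.5 dpp, which gives an increase of at least 1.12-fold (limma adjusted p = 0.00021).

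The gene that fell furthest was Cox6a2, the heart and muscle isoform of subunit VIa of complex IV. It was detected on all 3 arrays at 7.5 dpp (7.27, 7.40 and 7.07) and on none at 14.5 dpp (4.64, 4.70 and 4.82) or 21.5 dpp. It was therefore at least 3.03-fold lower at 14.5 dpp (limma adjusted p = 2e-04). In culture it was likewise detected at the start and on none of 3 arrays after 7 days, at least 2.8-fold lower (limma adjusted p = 0.0028). That call in culture was lost with the authors' deposited values. At 9.5 dpp in vivo its arrays read 6.12, 9.39 and 6.06, so that the array that stands apart is the highest by far. Of 7 skeletal and heart muscle markers, 2 were measured, and neither changed from 7.5 to 14.5 dpp in vivo. Spermatocyte markers moved in the same interval, 5 of 7 measured rising with a median of 3.11, and their mean level ran from 6.00 to 7.25 over the 7.5 dpp arrays and from 9.67 to 10.23 over the 14.5 dpp arrays. Of 6 measured Sertoli cell markers 3 fell and 1 rose, with a median of -0.54. Their part in the changes of the 84 genes was not tested. The other genes that fell to 14.5 dpp were Ndufaf5 by 0.67, Cox7a2l, a factor that joins complexes III and IV into supercomplexes, by 0.62, Cox6b1 by 0.58 and Ndufc2 by 0.34. The calls of Ndufaf5 and Cox7a2l were lost without 2 and 4 of the 6 single arrays.

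From 14.5 to 21.5 dpp in vivo, 27 of the 84 genes fell and 6 rose. In all genes 40.4% fell and 21.8% rose (62.2% in either direction), and the median of all genes dropped by 0.34 after normalization, while that of the 84 genes dropped by 0.13. By 2-fold or more, 5 fell and 2 rose, beside 20.3% and 15.9% of all genes. With arrays centred on their median in place of quantile normalization, 11 of the 84 genes fell and 10 rose. ATP synthase had 7 of its 16 subunits lower and none higher, with a median of -0.40, beside 10 lower and 3 higher of 34 for complex I (median -0.08), 1 lower of 3 for complex II (-0.21), 2 lower and 1 higher of 7 for complex III (-0.25) and 3 lower and 1 higher of 8 for complex IV (-0.23). These are medians of per-gene changes, and for complex III the sign depended on that choice. Its median level relative to the youngest age rose, from 0.13 at 14.5 dpp to 0.28 at 21.5 dpp. Single arrays overlapped on that measure, at 0.06 to 0.23 and 0.13 to 0.34. The other complexes fell by both summaries. Differences between complexes were not tested. Of all genes with a mean level of 10 or over, 57.3% fell and 14.6% rose, with a median of -0.56. Of all genes with a mean level under 10, 34.9% fell and 24.2% rose, with a median of -0.26. The ATP synthase median lay between these medians, and its subunits include genes of both brightness classes.

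Cox6b1, the somatic isoform of subunit VIb of complex IV, stood at 12.97, 13.10 and 12.73 at 14.5 dpp and at 11.82, 11.86 and 11.80 at 21.5 dpp. All 3 later arrays lay below all earlier ones, and the fall was 1.11 (SE 0.16, limma adjusted p = 5.1e-07). Cox6b2, the testis isoform of the same subunit and not among the 84 genes, went the other way and rose by 2.04 from 7.5 to 14.5 dpp and by 1.42 to 21.5 dpp (limma adjusted p = 0.0021 and 0.013). Cox8c, another testis isoform outside the 84 genes, rose by 4.50 to 14.5 dpp (limma adjusted p = 0.00014), and Cox7b2 was detected on no array at 14.5 dpp and on all 3 at 21.5 dpp, at least 1.47-fold higher (limma adjusted p = 0.00089).

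Ndufa4 fell by 1.27 from 14.5 to 21.5 dpp (SE 0.13, limma adjusted p = 1.3e-09), from 12.84, 12.68 and 12.77 to 11.53, 11.63 and 11.32. Cox7a1, the heart and muscle isoform of subunit VIIa, fell by 1.28 (SE 0.27, limma adjusted p = 0.00013) and Atp5g2, one of the genes for the c ring of ATP synthase, by 1.31 (SE 0.39, limma adjusted p = 0.0043). Among the other ATP synthase genes Atp5mpl fell by 0.89, Atp5l and Atp5pb by 0.83 and the alpha subunit Atp5a1 by 0.61. The beta subunit Atp5b read 14.87 at 14.5 dpp and 14.89 at 21.5 dpp. Ndufa1 fell by 1.07, back to 12.24, beside 12.27 at 7.5 dpp.

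Cox7a2, the widely expressed isoform of subunit VIIa, rose as Cox7a1 fell. It stood at 7.64, 7.91 and 8.23 at 14.5 dpp and at 9.71, 9.28 and 9.16 at 21.5 dpp, a rise of 1.45 (SE 0.39, limma adjusted p = 0.0018) with no overlap. The other genes that rose were Ndufaf3, Ndufa12 by 0.66, the complex III core protein Uqcrc1 by 0.52, Ndufc1 by 0.32 and Ndufv2 by 0.30. Spermatid markers moved in the same interval, 5 of 5 measured genes of 8 listed rising by a median of 4.67. Their mean level ran from 5.12 to 5.23 over the 14.5 dpp arrays, with 4 of them below detection throughout, and from 9.76 to 10.96 over the 21.5 dpp arrays. Of 6 measured Sertoli cell markers 5 fell, with a median difference of -1.11. The part of these cell types in the changes of the 84 genes was not tested.

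**Figure D2:**
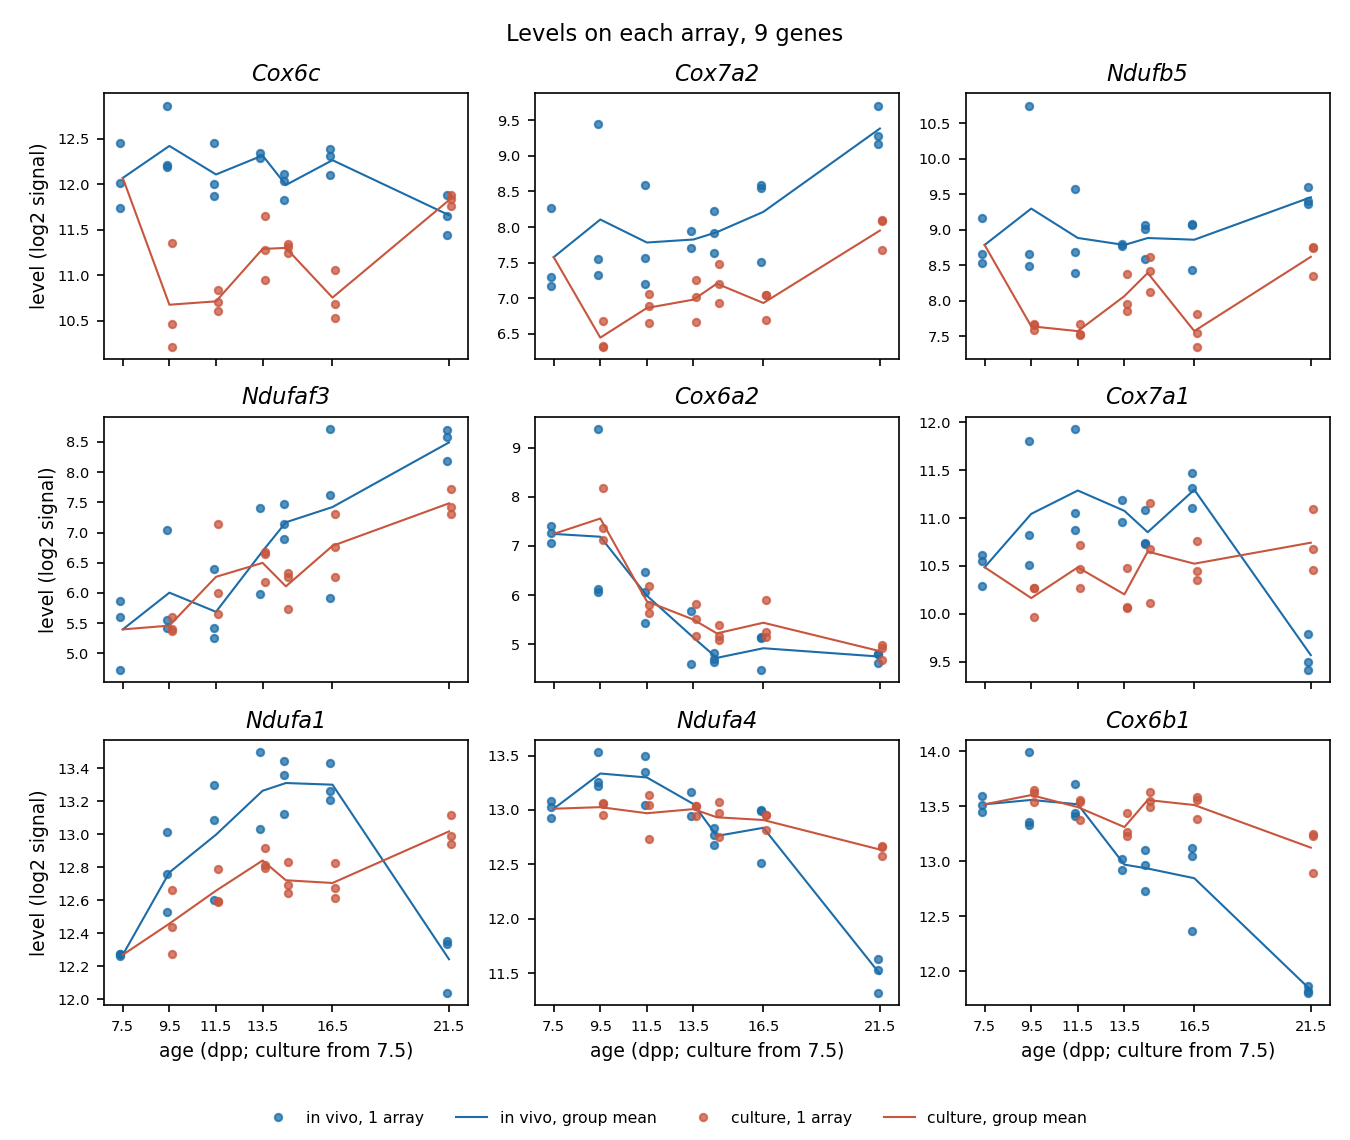
Level (log2 signal, vertical axis, scaled per panel) of 9 genes against age in dpp, 1 point per array, lines through group means, in vivo in blue and culture in red, the culture line starting from the 7.5 dpp in vivo mean. Cox6c lies lower in culture from 9.5 to 16.5 dpp, and Cox7a2 was called lower in culture at 9.5, 16.5 and 21.5 dpp. Cox7a1, Ndufa1, Ndufa4 and Cox6b1 fall in vivo but not to the same level in culture at 21.5 dpp.

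Culture was set against testis of the same age to ask how far organ culture keeps the expression programme of the testis. After 2 days, at 9.5 dpp, 28 of the 84 genes were lower in culture and 1 was higher. Over all genes 11.2% were lower and 11.6% higher (22.7% in either direction), and the median difference was -0.23 for the 84 genes and 0 for all genes to 2 decimals. Counting only called genes that also differed by 2-fold or more, 11 were lower and none higher, beside 4.02% and 4.69% of all genes. Part of this rests on the in vivo array that stands apart. Without replicate 2 of 9.5 dpp in vivo, 13 of the 84 genes were lower and 4 higher, beside 8.97% and 8.22% of all genes, with a median of -0.10. Of those 13 genes, 11 were also lower with every array. With the spread estimated from the 2 groups of the comparison alone, 2 genes remained called.

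After 4 days, at 11.5 dpp, 24 genes were lower and 1 was higher, beside 10.7% and 10% of all genes (20.7% in either direction), with a median of -0.26. Of these, 8 were lower by 2-fold or more and none higher, beside 4.02% and 3.93% of all genes. Without replicate 1 of 11.5 dpp in vivo, 6 were lower and 2 higher, beside 6.45% and 6.19% of all genes. The ages share 19 of the lower genes, 67.9% of the 28 and 79.2% of the 24, beside 55.2% and 57.8% for all genes lower at each age. Without the 2 single arrays they share 4, Atp5mpl, Cox6c, Ndufaf4 and the brighter probe of Atp5a1, 30.8% of the 13 and 66.7% of the 6, beside 42.3% and 58.8% for all genes. After 9 days, at 16.5 dpp, 18 genes were lower and 1 was higher, beside 9.37% and 11.8% of all genes (21.2% in either direction), with a median of -0.25. The 5 genes lower by 2-fold or more were Cox6c, Ndufb5, Cox7a2, Ndufaf2 and the brighter probe of Atp5a1, and none was higher, beside 3.16% and 5.18% of all genes. Without replicate 3 of 16.5 dpp in vivo, 9 were lower, beside 4.98% of all genes. After 6 days, at 13.5 dpp, where in vivo has 2 arrays, 4 genes were lower and 2 higher, beside 6.2% and 6.72% of all genes (12.9% in either direction). Cox6c and the brighter probe of Atp5a1 were lower by 2-fold or more and no gene was higher, beside 2.72% and 4.07% of all genes. With arrays centred on their median, 19 genes were lower and 1 higher at 13.5 dpp with no fold limit, and the median of all genes moved to -0.35.

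Cox6c, a small subunit of complex IV, was lower in culture at 5 of the 6 ages, which no other of the 84 genes reached. At 9.5 dpp its arrays read 12.21, 12.87 and 12.19 in vivo and 10.46, 10.21 and 11.35 in culture. At 16.5 dpp they read 12.10, 12.31 and 12.38 in vivo and 10.53, 11.05 and 10.68 in culture. The groups were apart at both ages, with a difference, culture minus in vivo, of -1.75 at 9.5 dpp (SE 0.22, limma adjusted p = 1.7e-06) and of -1.51 at 16.5 dpp (SE 0.22, limma adjusted p = 1.5e-05), and leaving out any array of those groups kept these calls. The difference was -1.39 at 11.5 dpp, -1.03 at 13.5 dpp and -0.69 at 14.5 dpp, and the calls at 13.5 and 14.5 dpp were lost without 2 of 5 and 3 of 6 single arrays. At 21.5 dpp the groups were close, at 11.66 ± 0.22 in vivo and 11.83 ± 0.06 in culture (SD, n = 3 each).

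Cox7a2 stood at 7.55, 9.44 and 7.33 in vivo and at 6.69, 6.32 and 6.34 in culture at 9.5 dpp. The difference was -1.66 (SE 0.39, limma adjusted p = 0.0024), and Cox7a2 stayed lower in culture without the array at 9.44. Ndufb5, a membrane-arm subunit of complex I, read 8.49, 10.75 and 8.66 in vivo and 7.59, 7.66 and 7.67 in culture. The difference was -1.66 at 9.5 dpp (SE 0.35, limma adjusted p = 0.00093), -1.31 at 11.5 dpp and -1.29 at 16.5 dpp. The calls at 11.5 and 16.5 dpp were lost without replicate 1 of 11.5 dpp and replicate 3 of 16.5 dpp in vivo. The 9.5 dpp calls of Cox7a2 and Ndufb5 were lost in a fit of the groups compared alone. Other complex I genes lower at 9.5 dpp included Ndufb9 (difference -1.63) and Ndufb2 (-1.57), both of the membrane arm, and Ndufb4, undetected in culture at 9.5 and 11.5 dpp, was at least 2.04-fold and at least 2.09-fold lower. Without replicate 2 of 9.5 dpp in vivo, Ndufb9 and Ndufb2 were still lower at 9.5 dpp and Ndufb4 was not. At 11.5 dpp Ndufb4 stayed lower without replicate 1 in vivo.

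Complex II had 2 of its 3 measured subunits lower in culture at 9.5, 11.5 and 16.5 dpp. These were Sdhb, the iron-sulfur subunit, with differences of -0.81, -0.78 and -0.62, and Sdhd, a membrane anchor, with -0.96, -0.89 and -0.80. The in vivo arrays of Sdhb at 9.5 dpp averaged 11.29 ± 0.63 (SD, n = 3) with the lowest at 10.86, all above the culture arrays at 10.49, 10.55 and 10.40. Neither gene was among those lower without the single array named for each age. In complex III only Uqcrh was lower at 9.5 dpp (difference -0.28), and not without replicate 2 of 9.5 dpp in vivo. Uqcrfs1 was at least 1.2-fold higher in culture at 11.5 dpp (limma adjusted p = 0.0035), detected on 3 of 3 culture arrays and on no in vivo array.

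Of the 11 assembly factors, 7 were lower in culture at 9.5 dpp and 6 at 11.5 dpp, with medians of -0.64 and -0.55, beside 11.2% and 10.7% of all genes lower. They were Ndufaf2, Ndufaf4, Ndufaf5 and Ndufaf8 of complex I and Sdhaf1, Sdhaf3 and Sdhaf4 of complex II at 9.5 dpp. Without the single arrays named above, 3 of the 11 were lower at 9.5 dpp (median -0.28), beside 8.97% of all genes. At 11.5 dpp 1 of the 11 was lower (median -0.37), beside 6.45% of all genes. Ndufaf2 read 9.12, 10.77 and 9.61 in vivo and 8.84, 8.68 and 8.61 in culture at 9.5 dpp, a difference of -1.12 (SE 0.24, limma adjusted p = 0.00096), and it was lower at 4 of the 6 ages. Ndufaf1 and Ndufaf7, also factors of complex I, were lower at 14.5 dpp (differences -0.42 and -0.66), while Sdhaf2, which attaches the flavin of complex II, was called at none of the 6 ages.

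The genes with a mean level under 10, a split by probe brightness, had 13 of 26 lower at 9.5 dpp with a median of -0.88. Those at 10 or over had 15 of 58 lower with a median of -0.20. Without replicate 2 of 9.5 dpp in vivo the dimmer genes had 8 lower with a median of -0.34 and the brighter ones 5 with a median of -0.09. Over all genes and all arrays the same brightness classes had medians of -0.01 and 0.03. Mitochondrial ribosome genes moved alongside, with 21 of 73 measured genes lower and none higher at 9.5 dpp (median -0.31) and 20 lower at 11.5 dpp (median -0.28), beside 11.2% and 10.7% of all genes lower. Without the single arrays 12 were lower and 2 higher at 9.5 dpp (median -0.15) and 7 lower at 11.5 dpp (median -0.17). Citric acid cycle genes had 3 lower and 1 higher of 14 at 9.5 dpp, and glycolysis genes 5 higher and none lower of 17, and both lists had the same counts without replicate 2 of 9.5 dpp in vivo. Macrophage markers were lower in culture at 9.5 dpp, 5 of 5 measured with a median difference of -2.30, with Adgre1, C1qa, C1qb and F13a1 below detection on all 3 culture arrays. Erythrocyte markers were lower, 4 of 5 measured with a median of -1.89, and endothelial markers were higher, 4 of 5 with a median of 1.31. Without that array 5 macrophage and 1 erythrocyte markers were lower and 4 endothelial markers higher. Their part in the lower levels of the 84 genes was not tested.

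**Figure D3:**
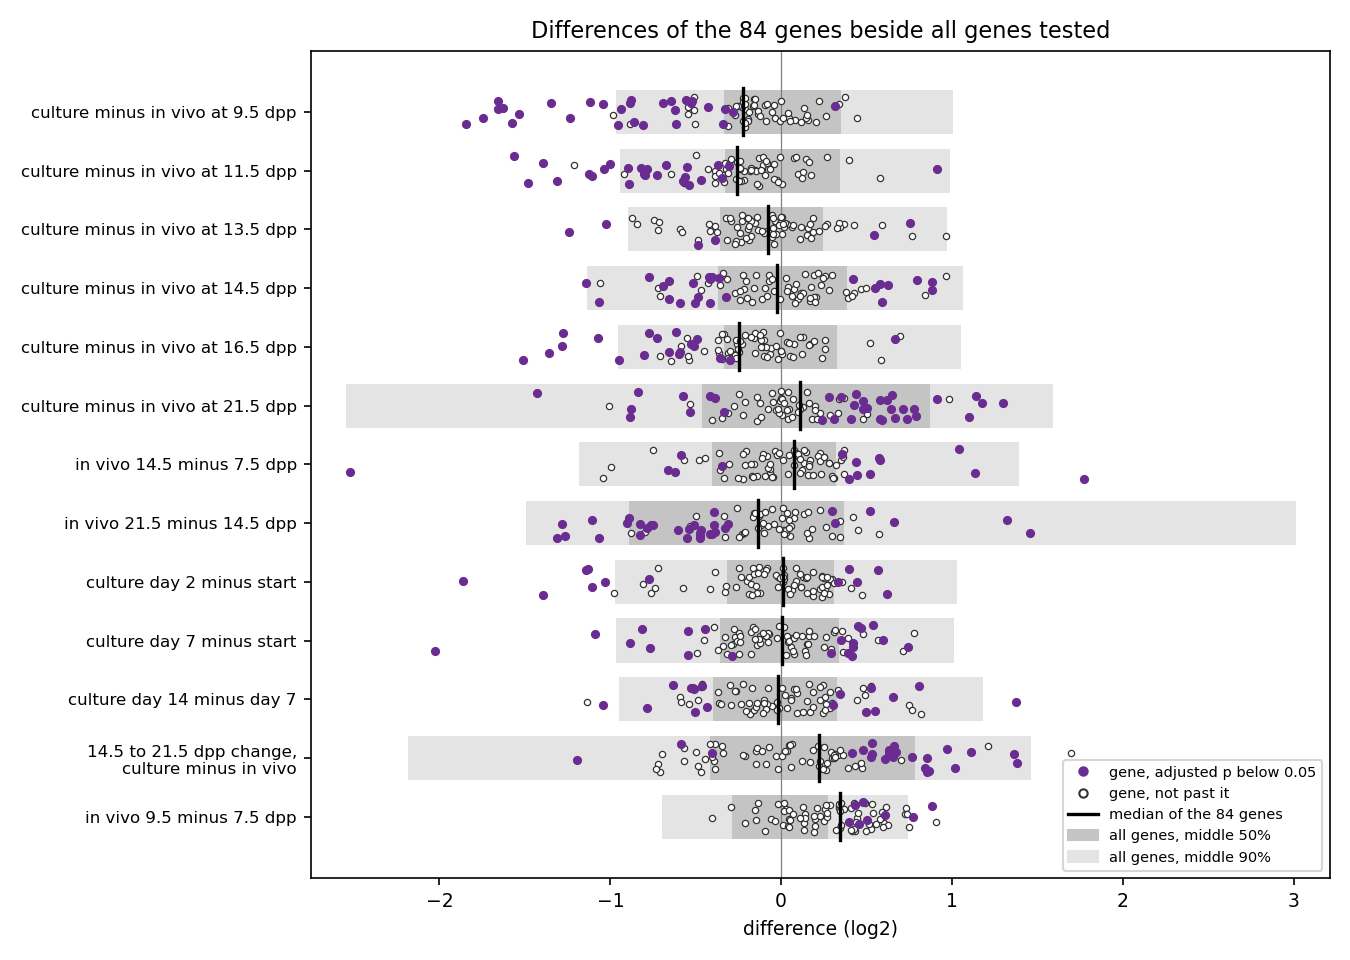
Difference in each comparison (log2, horizontal axis) for the 84 genes, 1 point per gene, filled where limma's adjusted p is below 0.05, with the median of the 84 genes as a black bar and the middle 50% and 90% of all 12518 genes as grey bands. At 9.5, 11.5 and 16.5 dpp the filled points lie almost all on the side lower in culture, and at 21.5 dpp most lie on the higher side, where the grey bands are also shifted and wide.

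After 7 days, at 14.5 dpp, 16 genes were lower in culture and 8 were higher, beside 14.5% and 14.8% of all genes (29.4% in either direction). Sdhd and Uqcrfs1 were lower by 2-fold or more on the fitted scale and no gene was higher, beside 5.74% and 5.56% of all genes. With arrays centred on their median, 25 genes were lower and 2 higher with no fold limit, in place of 16 and 8. The median of all genes then moved from 0.01 to -0.27. Sdhd differed by -1.07 (SE 0.28, limma adjusted p = 0.0045), Uqcrfs1 was at least 1.04-fold lower and Atp5h of the ATP synthase stalk differed by -0.78. Atp5h lost its call when any of 3 arrays was left out. Ndufc2, an accessory subunit of complex I, read 12.04, 11.97 and 11.88 in vivo and 12.85 ± 0.14 (SD, n = 3) in culture, higher by 0.88 (SE 0.13, limma adjusted p = 2e-05) with no overlap. Ndufaf4 was higher by 0.79 and Cox6b1 by 0.62. Ndufb4 was higher by 0.88 at an adjusted p of 0.048, a call lost under 7 of 8 alternatives, and a second probe of Ndufaf4 gave -0.13. Spermatocyte markers were lower in culture at this age, 3 of 7 measured with a median of -1.68, and their mean level ran from 7.92 to 8.65 over the culture arrays beside 9.67 to 10.23 in vivo. Erythrocyte markers were lower, 3 of 5 with a median of -5.92, and endothelial markers higher, 4 of 5 with a median of 1.92. Their part in the differences of the 84 genes was not tested.

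After 14 days, at 21.5 dpp, 26 of the 84 genes were higher in culture and 9 were lower. Over all genes 37.6% were higher and 22.8% lower (60.4% in either direction), and the median of all genes was 0.25 beside 0.11 for the 84 genes. By 2-fold or more 4 were higher (Cox6b1, Cox7a1, Ndufa4 and Atp5g2) and 1 lower (Cox7a2), beside 20% and 15.9% of all genes. By complex, 11 of 34 subunits of complex I were higher and 4 lower, 1 of 3 of complex II higher, 3 of 7 of complex III higher and 2 lower, 2 of 8 of complex IV higher and 1 lower, and 6 of 16 of complex V higher with none lower. Cox6b1 read 13.23, 13.24 and 12.90 in culture and 11.82, 11.86 and 11.80 in vivo, 2.46-fold higher (log2 difference 1.30, SE 0.16, limma adjusted p = 3.2e-08). Its testis counterpart Cox6b2 was lower in culture, with a difference of -1.45 (limma adjusted p = 0.012).

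Ndufa4 read 12.66, 12.67 and 12.58 in culture, higher than in vivo by 1.14 (SE 0.13, limma adjusted p = 1.1e-08). Cox7a1 was higher by 1.18 (SE 0.27, limma adjusted p = 0.00038), and Atp5g2 by 1.10 (SE 0.39, limma adjusted p = 0.015), a call lost without replicate 2 of 21.5 dpp in vivo and with the authors' deposited values. Cox7a2 was lower in culture, at 7.68, 8.08 and 8.10 beside 9.71, 9.28 and 9.16, 2.70-fold below in vivo (log2 difference -1.43, SE 0.39, limma adjusted p = 0.0021). Ndufaf2 was lower in culture, with a difference of -0.88, and kept its call without any 1 array. Uqcrfs1 was called lower and was detected on 1 of 3 culture arrays and on 3 of 3 in vivo arrays, near background throughout. Ndufb5 differed by -0.84, a call lost without any 1 of the 6 arrays. Spermatid markers were lower in culture, 5 of 5 measured with a median of -5.05, with Tssk2, Prm1 and Tnp1 below detection on all culture arrays, where their mean level ran from 4.96 to 5.33.

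Across the 6 ages, 7 genes were lower in culture at 4 or more ages, 8.33% beside 3.66% of all genes. They were Cox6c, Atp5mpl, Ndufaf2, Ndufb5, Sdhaf4, Sdhd and the brighter probe of Atp5a1. Without the single in vivo arrays named for 9.5, 11.5 and 16.5 dpp there were 4, Cox6c, Atp5mpl, Cox5a and the brighter probe of Atp5a1, 4.76% beside 2.68% of all genes. The ages counted for Atp5mpl and Cox5a include 13.5 dpp, where in vivo has 2 arrays and none was left out. There Atp5mpl (difference -0.39) lost its call with its dimmer probe and in a fit of the groups compared alone. Cox5a (-0.49) lost its call without replicate 2 of the culture arrays. Leaving out an in vivo array there leaves a single one, too few to judge these calls. With all arrays none was lower at all 6 ages, and 22 of the 84 genes differed at no age. Atp5mpl, a small membrane protein of ATP synthase, was lower at 9.5, 11.5, 13.5 and 16.5 dpp and higher at 21.5 dpp by 0.65.

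Within culture, between the 7.5 dpp start and day 2, 7 of the 84 genes fell and 5 rose, beside 10.6% and 10.2% of all genes (20.8% in either direction). By 2-fold or more 6 fell and none rose, beside 4.31% and 4.86% of all genes. Cox6c fell by 1.39 (SE 0.22, limma adjusted p = 3.4e-05), and the falls of Ndufb5 by 1.14 and Cox7a2 by 1.13 were lost in part when arrays were left out. Uqcrc1 rose by 0.57 (limma adjusted p = 0.01), a call kept without any 1 array. Cox7a2l rose by 0.62 and Ndufa5 by 0.44, calls lost without 4 and without any of the 6 single arrays. The dimmer probe of Ndufa5 gave -1.03. Over the same interval in vivo, 7.5 to 9.5 dpp, 8 genes rose and none fell, beside 3.57% and 3.33% of all genes (6.9% in either direction). None changed by 2-fold or more, beside 1.37% of all genes that rose and 0.735% that fell. The largest of these rises were those of Sdhb by 0.88 (1.42 and 0.31 by its other probes), Sdhaf1 by 0.77 (1.78 by its other probe), Ndufs5-ps by 0.61 and Ndufa1 by 0.50. Without replicate 2 of 9.5 dpp in vivo 1 gene rose, Cox5a, and 1 fell, Cox6a2, so that none of the 8 rises was left.

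Between the start and day 7, 11 genes rose and 9 fell, beside 11.6% and 12.7% of all genes (24.3% in either direction). Cox6a2 and Ndufb2 fell by 2-fold or more and none rose, beside 4.28% and 4.45% of all genes. Ndufa5, Ndufc1, Ndufc2 and Ndufa2 of complex I rose by 0.74, 0.60, 0.54 and 0.46, and Cox6a2, Ndufb2, Sdhd and Atp5h fell, Ndufb2 by 1.09, Sdhd by 0.88 and Atp5h by 0.81. The calls of Ndufb2, Sdhd and Atp5h were lost without 4, 2 and 2 of the 6 single arrays. The dimmer probe of Ndufa5 gave -0.38 at day 7, and Ndufc1 lost its call with its dimmer probe. From day 7 to day 14, 8 rose and 9 fell, beside 13.7% and 14.1% of all genes (27.9% in either direction). Ndufaf3 rose and Ndufb4 fell by 2-fold or more, 1 gene each way, beside 6.15% and 3.95% of all genes. Ndufc2 fell by 0.64 and Ndufa5 by 0.53, Ndufb4 by 1.04 and Ndufaf4 by 0.78, while Sdhd rose by 0.80, Sdhaf4 by 0.65, Ndufaf7 by 0.55 and Ndufaf3 by 1.37. The rise of Ndufaf3 lost its call without any of the 6 arrays, those of Sdhd and Sdhaf4 without 3 of them and that of Ndufaf7 without 4, and Sdhd also with the authors' deposited values. The dimmer probes of Ndufa5 and Ndufaf4 gave 0.18 and 0.11 from day 7 to day 14, against the falls given. With the replicate number as a block in a fit of these 2 groups alone, 19 genes rose and 17 fell, beside 32 called in that fit with no block. Centring arrays on their median turned these splits to 30 lower and none higher at day 7 and to 37 higher and none lower from day 7 to day 14, with the median of all genes at -0.35 and 0.46. The day 7 culture arrays had the lowest mean signals of the series.

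The change from 14.5 to 21.5 dpp differed between culture and in vivo for 24 of the 84 genes, 21 with the higher change in culture and 3 with the lower, beside 23.4% and 15.2% of all genes (38.6% in either direction). By 2-fold or more these were 4 and 1, beside 14.8% and 12.2% of all genes. Cox7a1 differed by 1.38 (SE 0.38, limma adjusted p = 0.0046), Ndufa1 by 1.36 (SE 0.21, limma adjusted p = 4.3e-06) and Ndufa10 by 1.11 (SE 0.15, limma adjusted p = 7.6e-07), each called under every alternative and with any array left out. Ndufa1 read 12.99, 12.94 and 13.12 in culture at 21.5 dpp and 12.35, 12.34 and 12.03 in vivo.

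Probes of the same gene did not always agree. Of the 84 genes, 26 had more than 1 probe that passed the filter. Atp5a1 had 2, both detected on all 38 arrays, and they went in opposite directions. At 9.5 dpp the brighter one differed by -1.85 (SE 0.19, limma adjusted p = 2.9e-08), and the other by 1.11 on the same arrays. The probes were also called in opposite directions at 11.5 and 13.5 dpp and at days 2 and 7, whereas both fell from 14.5 to 21.5 dpp in vivo, by 0.61 and 0.68. No direction in culture is therefore given for Atp5a1 transcripts as a whole, although the gene counts above include its brighter probe. The 2 probes of Atp5o, a stalk subunit of ATP synthase, were called in opposite directions in culture at 14.5 dpp (-0.36 for the brighter and 0.74 for the other) and from the start to day 7 (-0.44 and 0.83), and its direction there is not given either. The 4 probes of Ndufs4 gave differences at 9.5 dpp from -0.21 for the brightest down to -1.73. Ndufa5 gave 0.01 and -1.51 at that age by its 2 probes.

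**Figure D4:**
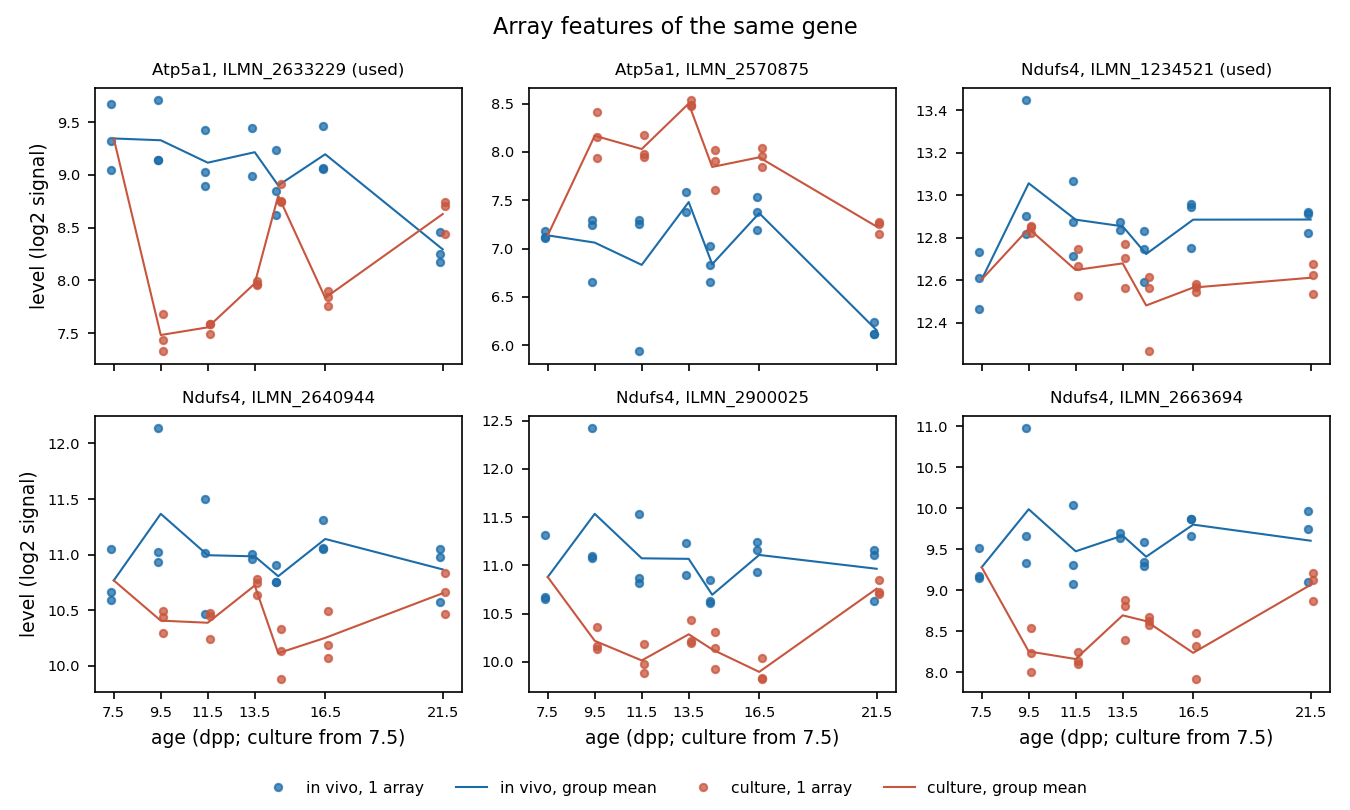
Level (log2 signal, vertical axis, scaled per panel) of the 2 probes of Atp5a1 and the 4 probes of Ndufs4 against age in dpp, 1 point per array, in vivo in blue and culture in red, the probe used for the gene marked. The culture line of Atp5a1 lies below in vivo on 1 probe and above it on the other between 9.5 and 13.5 dpp.

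Promoters were read for 2 motifs known from nuclear genes of respiration, the core GCATGCG of the NRF-1 site and the core CCGGAAG bound by ETS factors such as NRF-2. Windows ran from 250 bases before to 50 bases after the RefSeq gene start (GRCm38.p6), both strands were searched, and 72 of the 84 genes and 10082 of all 12518 genes had an entry. The NRF-1 core was in 13 of the 72 promoters, 18.1%, beside 6.71% of all promoters, and the ETS core in 21, 29.2%, beside 18%. A match describes letters and is not a binding site. Of the 13 promoters with the NRF-1 core, 4 are shown, from complexes II, III and IV and an assembly factor, chosen after their values were seen because each gene was called in a comparison above or in the values that follow. Capitals mark the matches, and CGCATGCG is 2 overlapping matches on opposite strands.
Sdhb, chr4:140961021-140961320, plus strand: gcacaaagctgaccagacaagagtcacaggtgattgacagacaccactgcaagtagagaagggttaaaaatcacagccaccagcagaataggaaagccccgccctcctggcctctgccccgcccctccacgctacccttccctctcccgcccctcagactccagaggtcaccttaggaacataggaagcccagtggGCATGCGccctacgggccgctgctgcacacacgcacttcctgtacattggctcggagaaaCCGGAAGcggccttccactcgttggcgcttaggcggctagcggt
Uqcrc1, chr9:108936398-108936697, plus strand: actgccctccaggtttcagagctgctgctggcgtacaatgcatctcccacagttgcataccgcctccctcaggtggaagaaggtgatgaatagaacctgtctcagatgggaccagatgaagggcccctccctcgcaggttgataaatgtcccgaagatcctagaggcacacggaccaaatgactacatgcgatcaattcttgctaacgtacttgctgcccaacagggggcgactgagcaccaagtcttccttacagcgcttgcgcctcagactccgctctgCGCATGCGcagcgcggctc
Cox6a1, chr5:115348909-115349208, minus strand: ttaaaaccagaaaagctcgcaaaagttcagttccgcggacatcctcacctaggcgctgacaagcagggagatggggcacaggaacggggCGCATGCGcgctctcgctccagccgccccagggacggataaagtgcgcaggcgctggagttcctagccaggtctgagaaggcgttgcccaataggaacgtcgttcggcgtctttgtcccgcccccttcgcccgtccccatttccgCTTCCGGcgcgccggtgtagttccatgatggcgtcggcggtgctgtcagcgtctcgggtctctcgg
Ndufaf4, chr4:24897833-24898132, plus strand: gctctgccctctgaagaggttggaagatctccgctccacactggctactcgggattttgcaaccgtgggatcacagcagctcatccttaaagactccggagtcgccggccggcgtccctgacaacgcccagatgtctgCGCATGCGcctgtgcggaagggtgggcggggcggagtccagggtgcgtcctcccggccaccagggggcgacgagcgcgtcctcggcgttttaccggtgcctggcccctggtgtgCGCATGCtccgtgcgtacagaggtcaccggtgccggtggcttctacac
Sdhb, with both motifs, was lower in culture at 3 ages with all arrays, and at none of these without the single in vivo arrays named above. Ndufaf4, with 3 NRF-1 matches, was lower at 9.5 and 11.5 dpp and higher at 14.5 and 21.5 dpp. At 14.5 dpp the other probe of Ndufaf4 gave -0.13, and the call was lost with arrays centred on their median. Uqcrc1 was lower in culture at 21.5 dpp (difference -0.39), and Cox6a1 was lower at 11.5 dpp (-0.54) and higher at 21.5 dpp (0.43). Cox7a2, Ndufb5, Ndufa4, Cox7a1 and Ndufaf3, which moved furthest in several comparisons, held neither core in these windows.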

How the data were processed

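Testis RNA was measured on 1-colour Illumina bead arrays. The deposited signal intensity of each probe was not normalized between arrays, and each has a detection p-value beside it, per the file headers. The authors' own log2 values for 39 arrays, made with lumi per the submitters' processing notes, served as an alternative. One signal and detection column pair carried no sample name and was not used (2 columns), which left 38 arrays and 2 at 13.5 dpp in vivo. Neither the scanner software nor the slide of an array is recorded in the labels or headers.

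The neqc function (limma 3.58.1, R 4.3.3) corrected the background, inferring negative controls through the detection p-values, added an offset of 16 and quantile normalized the arrays. Of 45281 probes, 23665 had a detection p below 0.01 on at least 3 arrays, and 19924 of these had 1 symbol in the platform table. The brightest probe stood for a gene, giving 12518 genes. lmFit with 1 mean per group and eBayes with trend (25 residual degrees of freedom) tested 12 comparisons and 2 F tests. The comparison of 9.5 with 7.5 dpp in vivo was chosen after seeing the data. The fit was tested on simulated data. At most 4 called genes per direction and comparison, the widest and narrowest genes of each complex, the core subunits, isoforms and assembly factors were named. Bounds of the form "at least" use the lowest detected signal of each array. The genes and lists were chosen with earlier results of these data known. The number of arrays limits the precision. Alternatives covered normalization, filters, probe choice, the groups fitted, a replicate block and leaving out each array. Same-numbered samples deviated together (every correlation above 0.1, from 0.35 to 0.46) in 1 comparison, culture day 14 against day 7, and in no other.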

Additional observations from a re-analysis of the deposited data

Results flagged for a closer look

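For 7 of the genes named above, the change from 14.5 to 21.5 dpp differed between culture and in vivo by the interaction term of the limma fit, with adjusted p-values over all genes below 0.05. The change in culture exceeded that in vivo by 1.38 for Cox7a1, 1.36 for Ndufa1, 1.11 for Ndufa10 and 1.02 for Sdhd (log2, n = 3 arrays per group). It was below that in vivo by the interaction values of -1.20 for Ndufb4, -0.59 for Ndufa5 and -0.40 for Ndufa2. Cox7a1, Ndufa1 and Ndufa10 kept their calls without any 1 array, while Sdhd lost it without 7 of 12 single arrays and under 3 of 8 alternatives and Ndufa2 without 9 of 12. The values of Ndufb4 were called under 1 of 8 alternatives, and those of Ndufa5 had the opposite sign with another probe (0.027).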

How the results depend on the processing

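Counts below are genes of the 84 called, with no share of all genes beside them, and medians are of their differences (log2). Leaving out 1 array each gave these ranges. Culture minus in vivo: 17 to 34 called (median -0.34 to -0.10) at 9.5 dpp, 8 to 29 (-0.33 to -0.16) at 11.5 dpp, 2 to 7 (-0.16 to -0.08) at 13.5 dpp, 17 to 20 (-0.07 to 0.02) at 14.5 dpp, 9 to 21 (-0.26 to -0.16) at 16.5 dpp and 27 to 30 (0.08 to 0.13) at 21.5 dpp. In vivo: 10 to 14 (0.02 to 0.11) from 7.5 to 14.5 dpp, 28 to 32 (-0.18 to -0.08) from 14.5 to 21.5 dpp and 2 to 28 (0.10 to 0.46) from 7.5 to 9.5 dpp. Within culture: 5 to 11 (0.0011 to 0.04) at day 2, 7 to 17 (-0.04 to 0.05) at day 7 and 9 to 13 (-0.05 to 0.02) from day 7 to 14. The difference of the 14.5 to 21.5 dpp changes gave 15 to 20 (0.15 to 0.25), and the F tests 53 to 61 in vivo and 33 to 44 in culture.

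Centring arrays on their median gave 20 called at 13.5 dpp, 8 from 7.5 to 14.5 dpp, 21 from 14.5 to 21.5 dpp and 37 from day 7 to 14. Its medians were -0.46 at 9.5 dpp, -0.44 at 11.5 dpp, -0.39 at 13.5 dpp, -0.33 at 14.5 dpp, -0.13, 0.073 and 0.47 for the in vivo steps 7.5 to 14.5, 14.5 to 21.5 and 7.5 to 9.5 dpp, -0.41 at day 7, 0.51 from day 7 to 14 and 0.47 for the difference of changes. Fitting only the groups compared, with fewer samples behind the spread, gave 2 called at 9.5 dpp, 8 at 11.5 dpp, 7 at 16.5 dpp, 32 from day 7 to 14, 39 for the difference of changes and 0 from 7.5 to 9.5 dpp, where the main fit called 8. Also asking for 2-fold left 11, 8, 2, 2, 5 and 5 called at 9.5, 11.5, 13.5, 14.5, 16.5 and 21.5 dpp, 4, 7 and 0 for the in vivo steps to 14.5, 21.5 and 9.5 dpp, 6, 2 and 2 for days 2, 7 and 7 to 14 and 5 for the difference of changes.

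The dimmest probe per gene gave the opposite sign for Atp5a1 at 9.5 dpp (1.11), 11.5 dpp (1.20), 13.5 dpp (1.02), 16.5 dpp (0.58) and day 2 (1.03), for Ndufaf4 at 14.5 dpp (-0.13) and from day 7 to 14 (0.11), and for Ndufa5 at day 2 (-1.03), day 7 (-0.38), from day 7 to 14 (0.18) and in the difference of changes (0.027), whose median became 0.050. The causes were not tested. Fitting day 7 and day 14 alone with the replicate number as a block gave 36 called, an alternative chosen after seeing the data. In the fit of all groups the replicate block gave 30 called at 9.5 dpp and 33 at 21.5 dpp, and moved no count by over 1.5 times; pairs of the same replicate number correlated at -0.50 to 0.46. The authors' values, no background correction, other detection filters and fitting every probe also moved no count by over 1.5 times. Slide as a block was not run, as no slide is given. Probes near background limit the precision for 12 of the 84 genes, detected on some arrays only.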
